A study of Danio rerio with 13 samples.

Results

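A set of 380 genomic regions in zebrafish embryos had 6mA-IP-seq summits at the 64-cell stage (64C) and at 11 hours post fertilization (hpf) but none at 12 or 13 hpf. They were found by pooling the summits of all 8 IP libraries, chaining summits no more than 250 bp apart into 63852 regions, and taking the regions with a summit in at least 1 of the 2 libraries of 64C and in both replicates of 11 hpf, and in none of the 4 libraries of 12 and 13 hpf. They make up 0.595% of all regions and 0.607% of the 62614 regions with a 64C summit. The regions were selected on the summit calls of all 8 libraries. Their presence at 64C and 11 hpf and their absence afterwards are not findings, and everything that follows from the lists used in the choice is given as a description without a test.

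6mA is adenine with a methyl group at its N6 position. It is a common mark in bacteria, where it separates self from foreign DNA, and its presence and role in animal genomes are debated. At 64C the zebrafish embryo is in its cleavage period, dividing rapidly with most of its own genes still silent, whereas from 11 to 13 hpf gastrulation is over and the first somites form. In 6mA-IP-seq, an anti-6mA antibody captures pieces of sheared gDNA for sequencing, and a peak is called where this IP has more reads than the input, the same gDNA without capture. The summit of a peak is its most enriched position.

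All embryos came from the Tubingen strain, their labels give no treatment or mutation, and the labelled groups differ by stage and antibody. The SYSY antibody was used on 1 library at 64C and on 2 biological replicates each at 11, 12 and 13 hpf, and the Abcam antibody on 1 library at 64C. Each of the later stages had 1 input for both replicates, and each 64C library had its own. Embryos were pooled by stage and not separated by tissue, so that a region marked in some cells and a region marked weakly in all cells cannot be told apart.

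The 6 lists of 11 to 13 hpf differ in length. The lists of 11 hpf hold 7582 (replicate 1) and 4584 (replicate 2) summits, those of 12 hpf 3785 and 4474, and those of 13 hpf 3476 and 2439, against 79291 with SYSY and 53511 with Abcam at 64C. Read numbers were not analysed here, so that the sequencing depth is unknown. A region without a summit in a list was not called there at the authors' cutoff, which does not show that 6mA was absent. The 64C SYSY list stands apart from the others in the sequence it covers: it has 0 summits on unplaced scaffolds and stops over 100 kb short of the other lists on 5 chromosomes (4, 6, 15, 18 and 21). Marks in the names of the peaks also differ between 64C and the later stages, and between SYSY and Abcam at 64C. If they stand for separate experiments, neither stage nor antibody can be told apart from experiment.

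The regions were first set beside all others with summits in both replicates of 11 hpf. Of 2013 regions with a summit in both replicates of 11 hpf, 1958 (97.3%) also had one at 64C, and among the 396 with no summit at 12 or 13 hpf the share was 96%. Of these 1958 regions, the 380 that had no summit at 12 or 13 hpf are 19.4% (95% Wilson interval 17.7 to 21.2%, for counting error only). A summit in exactly 1 of the 4 lists of 12 and 13 hpf was found in a different set of 396 regions, in 2 of the lists in 362, in 3 in 346 and in all 4 in 474. The regions thus spread almost evenly over 0, 1, 2 and 3 lists, with somewhat more in all 4. In the regions with 1 such list, it was 12 hpf replicate 2 in 156, 12 hpf replicate 1 in 97, 13 hpf replicate 1 in 95 and 13 hpf replicate 2 in 48. The order follows the lengths of these lists.

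The same rule was then applied to the other later stages. Regions with a 64C summit, both replicates of 12 hpf and no summit at 11 or 13 hpf numbered 153, or 11.3% of the 1357 regions with 64C and both 12 hpf replicates. For 13 hpf there were 69 such regions, or 7.14% of 967. The lists of 11 hpf are the longest, so the comparison was repeated with the 2439 highest-valued summits of each of the 6 later lists. It then gave 125 regions for 11 hpf only (14.8% of 842, 12.6 to 17.4%), 102 for 12 hpf only (13.0% of 784, 10.8 to 15.5%) and 130 for 13 hpf only (15.7% of 830, 13.3 to 18.3%). With lists of equal length, 11 hpf therefore no longer had the most stage-limited regions. Equal length means unlike value cutoffs, however. The list of 13 hpf replicate 2 was kept whole with its 2439 summits, whereas 11 hpf replicate 1 was cut from 7582 and lost its lower values. The intervals cover counting error only, and the stages were not tested against each other, since regions are not replicates of a stage. Of the 380 regions, 86 (22.6%) were found again among the 125. Only 68.8% of the 125 overlapped the 380, so that the rest were regions outside them.

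**Figure D1:**
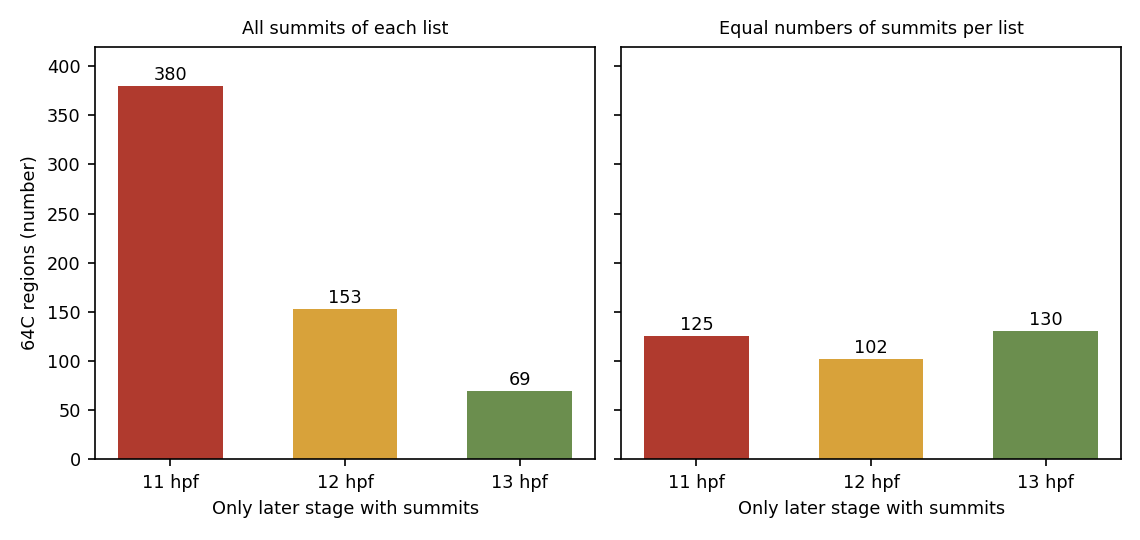
Number of 64C regions (y axis) with summits in both replicates of only 1 later stage (x axis), with all summits of each list (left) and with the same number of highest-valued summits from each of the 6 later lists (right). With all summits 380, 153 and 69 regions were limited to 11, 12 and 13 hpf, and with equal numbers 125, 102 and 130.

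The number of regions rested on both replicates of 11 hpf. Without 11 hpf replicate 1 the rule gave 951 regions and without replicate 2 it gave 2056, since a single replicate then sufficed. Leaving out any 1 of the 12 and 13 hpf libraries gave 428 to 537.

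The enrichment behind the regions was described by the value that accompanies each summit, the −log10 of its q-value, and by the percentile rank of the region's highest summit among the summits of its own list (100 is the highest). Values were not compared between lists. In 11 hpf replicate 1 the values of the 380 regions ran from 2.06 to 24.5 with a median of 4.86, and the median rank was 55.6. In replicate 2 they ran from 2.09 to 22.9 with a median of 4.63, and the median rank was 46.2. The regions kept to 11 hpf only thus lay around the middle of both lists, and 158 of them in replicate 1 and 218 in replicate 2 ranked below 50. In the 474 regions with summits in all 6 later lists the median ranks at 11 hpf were 90.6 in replicate 1 and 84.1 in replicate 2. These regions held more summits, a median of 3 in replicate 1 against 1, which by itself raises the rank of the highest. Between these ends, the median rank in replicate 1 was 59.4, 68.5 and 77.1 in regions with 1, 2 and 3 lists of 12 and 13 hpf.

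**Figure D2:**
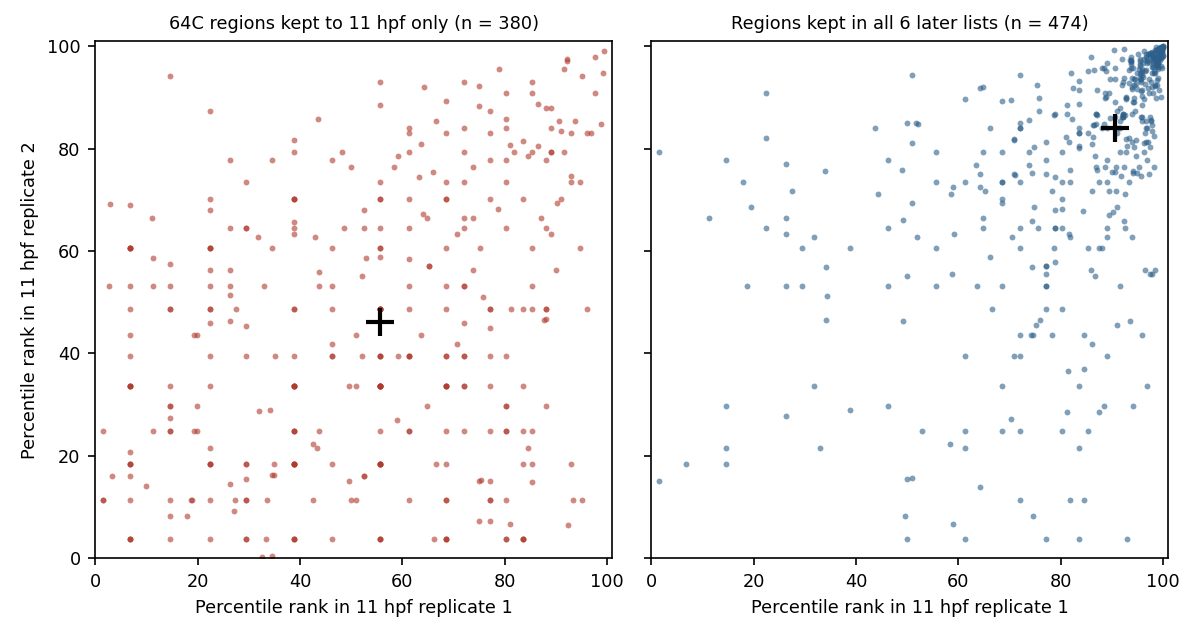
Percentile rank of each region's highest summit within 11 hpf replicate 1 (x axis) and replicate 2 (y axis), for the 380 regions kept to 11 hpf only (left) and the 474 regions with summits in all 6 later lists (right). Points are regions and the cross marks the medians, 55.6 and 46.2 on the left and 90.6 and 84.1 on the right.

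Split into 5 groups of equal size by their mean rank at 11 hpf, the 1958 regions differed in how many had no summit at 12 and 13 hpf. In the lowest group 33.7% of 392 regions had no summit at 12 or 13 hpf and 5.10% had one in all 4 lists. In the highest group the shares were 5.36% and 59.2%. In the groups between, the shares without a later summit were 27.6, 16.8 and 13.6%, falling from group to group. How much of the absence at 12 and 13 hpf goes with low values near the cutoff was not tested.

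**Figure D3:**
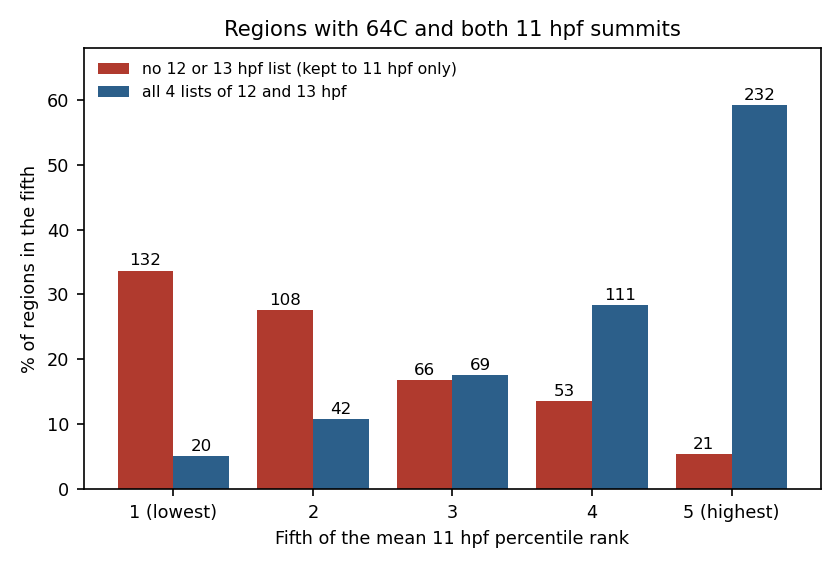
Share of regions (y axis, %) with no summit in the lists of 12 and 13 hpf (red) and with a summit in all 4 of them (blue), in 5 groups of the regions with 64C and both 11 hpf summits ordered by mean 11 hpf rank (x axis). Numbers above the bars are regions, and the red bars fall from 33.7% to 5.36% while the blue bars rise from 5.10% to 59.2%.

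A smaller number of regions was high at 11 hpf and still had no summit later. Of the 380, 111 ranked at or above 50 in both replicates, 40 at or above 75 and 8 at or above 90. The 111 are 11.3% of the 986 regions with 64C and both 11 hpf summits that ranked at or above 50 in both replicates. The 40 are 7.41% of the 540 at or above 75. Summits in all 4 lists of 12 and 13 hpf were found in 38.8% of the 986 and 51.3% of the 540. Among all 1958 regions with 64C and both 11 hpf summits, 245 ranked at or above 90 in both replicates, so that the 8 are 3.27% of them, whereas 158 (64.5%) had summits in all 4 lists of 12 and 13 hpf.

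The 10 regions with the highest mean rank over 64C and 11 hpf are described singly, as they combine high values at both stages with no summit afterwards. The first lies on danRer10 chromosome 15 from 44583841 to 44583845, where the values were 68.3 at 64C with SYSY, 27.0 at 64C with Abcam, and 24.5 and 22.9 in replicates 1 and 2 of 11 hpf. Its 4 summits, 1 of each library, span 4 bp, and it ranked above 96 in all 4 lists. The nearest 12 or 13 hpf summit lies 5335 bp away.

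The second region, on chromosome 13 from 51522745 to 51522898, had 51.2 with SYSY at 64C and 16.4 and 18.5 at 11 hpf, and no Abcam summit. It lies 256 kb from the end of the chromosome, with a 12 or 13 hpf summit at 1764 bp. On chromosome 23 from 43071341 to 43071379 the values were 47.9 with SYSY, 14.0 with Abcam, and 10.4 and 14.8 at 11 hpf. In that region 11 hpf replicate 1 alone stands 33 bp or more from the other 3 libraries, whose highest summits lie within 5 bp of each other. The fourth, on chromosome 10 from 3366571 to 3366717, had 27.6 with SYSY, 12.1 with Abcam, and 16.4 and 11.2 at 11 hpf. Its nearest 12 or 13 hpf summit is 252107 bp away.

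The next regions are a pair on unplaced scaffolds, where SYSY has no summit at 64C, and 1 on chromosome 18. Scaffold KN150474v1 from 167317 to 167325 had 9.90 with Abcam and 10.7 and 17.3 at 11 hpf, and scaffold KN149917v1 from 1882 to 2119 had 9.41 with Abcam and 12.7 and 13.6 at 11 hpf. The latter scaffold carried no 12 or 13 hpf summit at all. On chromosome 18 from 8695412 to 8695505 the values were 23.3 with SYSY, 19.2 with Abcam, and 15.1 and 8.92 at 11 hpf.

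The last 3 had the lowest values of the 10 in 11 hpf replicate 1, though not in replicate 2. Chromosome 5 from 40084570 to 40084597 had 12.1 with Abcam, 8.18 and 12.4 at 11 hpf and no SYSY summit. Its nearest 12 or 13 hpf summit is 390732 bp away and the nearer chromosome end 31.6 Mb. Scaffold KN149855v1 from 22216 to 22219 had 13.2 with Abcam and 8.40 and 10.4 at 11 hpf, and a 12 or 13 hpf summit stands 464 bp off. Chromosome 15 from 44974959 to 44975329 had 21.8 with SYSY, 13.2 with Abcam, and 8.18 and 11.2 at 11 hpf. Of the 7 regions on numbered chromosomes, 5 had summits with both antibodies at 64C.

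**Figure D4:**
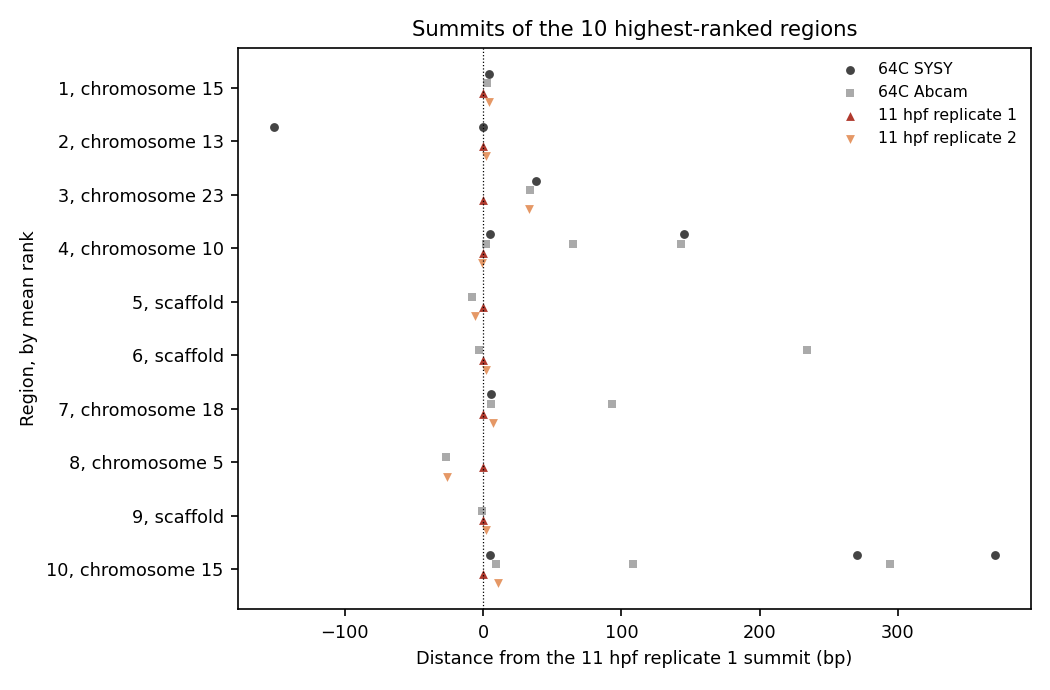
Positions of all 64C and 11 hpf summits in the 10 regions with the highest mean rank (y axis, in order of rank), as distance in bp from the summit of 11 hpf replicate 1 (x axis). The 2 replicates of 11 hpf lie at most 33 bp apart in each region, while further 64C summits lie up to 370 bp away.

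The regions were then compared in their 64C signal. Of the 380, 262 (68.9%, 64.1 to 73.4%) had summits with both antibodies at 64C, 62 (16.3%) with SYSY alone and 56 (14.7%) with Abcam alone. Over all regions with a 64C summit both antibodies were found in 20.1%, and over those with both 11 hpf replicates in 72%. In regions with 64C, both 11 hpf replicates and 1, 2 or 3 lists of 12 and 13 hpf the shares were 77.3% (72.9 to 81.1%), 73.8% and 71.1%. The share in the 380 is thus below that of regions with 1 such list. It is close to the 72%, which includes the 380, and to the 69.2% (64.9 to 73.2%) of the 474 regions kept in all 6 later lists. This closeness depends on the scaffolds, where SYSY has no summit at 64C. Off the numbered chromosomes lie 6.58% of the 380, 9.09% of those with both 11 hpf replicates and 15.6% of the 474. Regions with both antibodies numbered 262 beside 355 on numbered chromosomes in the 380. The numbers were 1409 beside 1780 with both 11 hpf replicates and 328 beside 400 in the 474. Set against numbered chromosomes, the share is lower in the 380 than in those with both 11 hpf replicates and in the 474. In regions with 12 hpf only the numbers were 76 beside 139, and with 13 hpf only 44 beside 68, which are lower shares still. At like 11 hpf rank the order of the 380 and the 474 was not the same throughout. From the lowest to the highest of the 5 rank groups, scaffolds included, the share in the 380 was 65.2, 70.4, 78.8, 69.8 and 52.4%. In the 474 the shares were 65.0, 59.5, 69.6, 69.4 and 71.1%, so that the 380 had the lower share in the highest group only. Of the 56 regions with Abcam alone, 25 lie on scaffolds and 7 past the last 64C SYSY summit of their chromosome, leaving 24 on sequence where SYSY had summits. Each antibody has 1 library at 64C, so that antibody and library cannot be told apart.

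In the 64C SYSY list the values of 324 of the regions ran from 2.03 to 103 with a median of 10.1, and in the Abcam list those of 318 ran from 2.16 to 27.0 with a median of 9.00. The median ranks were 75.4 and 82.5. The regions thus ranked higher within the 64C lists than within those of 11 hpf, although ranks in lists of such unequal length are not a measure of change. They also held a median of 2 summits in each 64C list against 1 in each 11 hpf list, which by itself raises the rank of the highest. Over all 1958 regions with 64C and both 11 hpf summits the median ranks at 64C were higher, 83.6 with SYSY and 87.2 with Abcam. In regions with 64C and 12 hpf only the median ranks at 64C were 75.4 and 78.5, in those with 13 hpf only 66.8 and 74.0, and in those kept in all 6 later lists 91.8 and 88.9.

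Within the 380, the antibody pattern at 64C went with the extent of the region. Regions with both antibodies had a median of 8 summits over 448 bp, those with SYSY alone 4 over 140 bp, and those with Abcam alone 4 over 134 bp. A region with summits of more libraries has more summits by construction. The median 11 hpf rank, as the mean of both replicates, was 50.3 with both antibodies, 50.1 with SYSY alone and 38.2 with Abcam alone. At 11 hpf 311 of the regions (81.8%) in replicate 1 and 342 in replicate 2 had a single summit, whereas at 64C the single-summit share was 32.4% with SYSY and 29.2% with Abcam.

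The rule joins summits over gaps of at most 250 bp and asks for both 11 hpf replicates, so that their closeness within a region follows from it, and the distances are given as a description. Between the highest summits of both 11 hpf replicates the median distance was 32.5 bp, and 221 of the 380 pairs (58.2%) lay within 50 bp, the length of a sequenced read. From 11 hpf replicate 1 to the highest 64C summit the median was 59.0 bp with SYSY and 78.5 bp with Abcam. In the regions kept throughout, which are longer, the corresponding medians were 50.5, 77.5 and 141 bp. The 64C and 11 hpf summits of a region kept to 11 hpf only spanned a median of 310 bp (quartiles 96.5 and 641 bp), against 652 bp in those kept in all 6 later lists. In 27 of the 380 (7.11%) all summits fell within 10 bp, and in 36 (9.47%) they spanned more than 1000 bp. Among those kept in all 6 later lists, which hold more summits, the corresponding numbers were 11 (2.32%) and 138 (29.1%).

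The 5 regions with the most summits show the other extreme. Chromosome 8 from 3112150 to 3114783 had 35 summits, of which 19 came from SYSY and 13 from Abcam at 64C and only 2 and 1 from replicates 1 and 2 of 11 hpf. Chromosome 11 from 45062314 to 45064069 had 28, with 14, 12, 1 and 1 in the same order. This region lies 43.8 kb from the chromosome end. Chromosome 8 from 53819984 to 53821756 had 26 (12, 9, 2 and 3). On chromosome 21 from 5975270 to 5976711 and on chromosome 5 from 67966312 to 67967345 there were 23 each, with 5 and 3 and with 3 and 3 at 11 hpf. In each of the 5 most of the summits came from 64C, and the highest 11 hpf values in each list ran from 2.91 to 9.44.

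Where the regions lie was not used to choose them. Of the 380, 355 lie on the 25 numbered chromosomes, each of which has at least 8, and 25 on unplaced scaffolds. Taken from the first base or from the last summit of any library, 145 of the 355 (40.8%, 35.9 to 46.0%) lay within 2 Mb of a chromosome end. The share was 21.9% over all regions with a 64C summit, 48.4% over those with 64C and both 11 hpf replicates, and 55.5% (50.6 to 60.3%) over those kept in all 6 later lists. The 48.4% includes the 355. With 64C, both 11 hpf replicates and 1, 2 or 3 lists of 12 and 13 hpf it was 47.2% (42.2 to 52.3%), 46.3% and 51.4%. The interval for 1 list overlaps that of the 355. The median distance to the nearer end was 3.00 Mb in the regions kept to 11 hpf only and 1.66 Mb in those kept throughout. With 12 hpf only the share within 2 Mb was 28.1% and with 13 hpf only 35.3%. These differences were not tested, since neighbouring regions are not independent, and the Wilson intervals cover counting error only. In repeated sequence a summit can stand for any copy, since the authors assigned multiply matching reads at random.

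**Figure D5:**
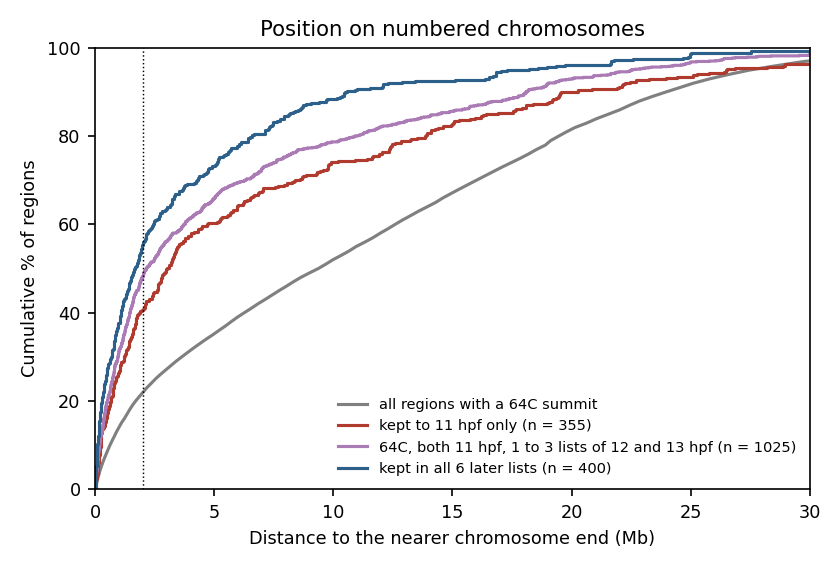
Cumulative share of regions on numbered chromosomes (y axis, %) by distance to the nearer chromosome end (x axis, Mb), for regions kept to 11 hpf only, regions with 64C, both 11 hpf and 1 to 3 lists of 12 and 13 hpf, regions kept in all 6 later lists, and all regions with a 64C summit. At 2 Mb (dotted line) the curves stand at 40.8% for 11 hpf only, 55.5% for those kept throughout and 21.9% for all 64C regions.

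The shares were also taken at like 11 hpf rank. In the lowest of the 5 groups by 11 hpf rank 37.0% of the regions kept to 11 hpf only lay within 2 Mb of an end, against 52.6% of those kept throughout, of which this group has only 19. In the second group the shares were 35.0% of 103 and 56.8% of 37, in the fourth 40.4% of 52 and 57.3% of 89, and in the highest 44.4% of 18 and 57.2% of 194. In the middle group the order was the other way round, with 57.1% of 63 and 47.5% of 61, so that the share of the regions kept to 11 hpf only was the lower in 4 of the 5 groups. Inside the 380, regions near an end had a median 11 hpf rank of 52.2 and interior ones of 46.5.

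By chromosome, the share of regions with 64C and both 11 hpf summits that had none at 12 or 13 hpf ran from 11.4% on chromosome 19 (8 of 70) to 28.6% on chromosome 23 (22 of 77). Over all numbered chromosomes the share was 19.9%, and with the scaffolds 19.4%. Chromosome 4, whose long arm is known for its repeats and late replication, had the most such regions, 23 of 85 (27.1%), followed by chromosome 23 with 22 and chromosome 5 with 20. Per length, chromosome 23 was highest with 4.76 regions per 10 Mb and chromosome 3 lowest with 1.28. Chromosome 4 has the longest span, 76.6 Mb, and its 3.00 regions per 10 Mb were exceeded on several other chromosomes. These counts are small and no chromosome was tested against the rest.

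Few of the regions lay within 10 kb of each other, although they were not spread evenly. On numbered chromosomes 40.8% lay within 2 Mb of an end, against 21.9% of all regions with a 64C summit. Over regions with 64C and both 11 hpf replicates the share was higher, 48.4%, so that this unevenness is not particular to regions kept to 11 hpf only. The regions kept to 11 hpf only fell into 374 separate loci when those within 10 kb of each other were joined, and only 6 pairs were that close. Of 1353 windows of 1 Mb, 250 held at least 1 of them, and no like number for other regions is given here. The highest number in a window was 5, reached in 4 windows: on chromosome 2 from 58000001 to 59000000, on chromosome 7 from 1 to 1000000, on chromosome 8 from 53000001 to 54000000 and on chromosome 23 from 44000001 to 45000000. In these windows 14, 15, 12 and 10 regions had 64C and both 11 hpf summits, so that regions kept to 11 hpf only lay beside others that were called later too.

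The distance to the nearest 12 or 13 hpf summit was measured for each region. The median was 16834 bp (quartiles 3113 and 89534 bp), and 8 regions, all on scaffolds, had no such summit on the same sequence. A 12 or 13 hpf summit lay within 500 bp of 30 regions, within 1 kb of 50 (13.2%), within 10 kb of 156 and within 100 kb of 286. Near chromosome ends the median distance was 6679 bp and in the interior 58373 bp. Regions with 12 hpf only lay a median of 21810 bp from a summit of 11 or 13 hpf, and regions with 13 hpf only 32145 bp from one of 11 or 12 hpf. These medians are measured to different lists of unequal length, in sets with unlike shares near chromosome ends. They are therefore not like measures.

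At the threshold of 250 bp the choice was a matter of a few bases. Just inside, the region on chromosome 5 from 59367592 to 59367758 has a 12 hpf summit with a value of 2.95 at 258 bp, and that on chromosome 23 from 43616315 to 43616599 a 13 hpf summit with 2.26 at 262 bp. Just outside, summits on chromosome 19 from 667003 to 667371 and on chromosome 1 from 47953079 to 47953103 were joined to a 12 hpf summit at 249 bp, with values of 2.47 and 2.19. The later summits with 2.26, 2.47 and 2.19 had values near the lowest that the authors' cutoff allows. That with 2.95, from 12 hpf replicate 1, was further above it but below the median of its list, 4.32.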

How the data were processed

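Reads of 50 bp were mapped by the authors to danRer10 (Bowtie, 1 best match at random for reads with several), and MACS called peaks separately per IP library relative to input, with q-values up to 0.01. The deposited lists give, for each IP library, summit positions and the −log10 of the q-value. The 5 inputs have no list here. Positions are counted from 1. The regions and comparisons were chosen with earlier results of these data known, and no test across regions was made. The text names the 10 regions with the highest mean percentile rank over both 11 hpf replicates and 64C, the 5 with most summits and 2 on either side of the threshold. Chaining was run on simulated lists with planted patterns, none of whose gaps came near 250 bp, so that this checks the counting and not the threshold. Alternatives were other chaining gaps, value filters, equal list lengths, single 64C lists, a distance of 1000 bp to 12 and 13 hpf summits, numbered chromosomes only and each replicate left out. The gene table given is for another assembly, and no genome sequence or annotation of danRer10 was used, so that sequences, motifs, repeats and genes were not analysed here. Versions were Python 3.11.15, pandas 2.3.3, NumPy 2.4.6, matplotlib 3.10.9 and SciPy 1.17.1.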

Additional observations from a re-analysis of the deposited data

How the results depend on the processing

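The number of regions kept to 11 hpf only, 380, moved by more than 1.5 times with equal numbers of summits (125) and without 11 hpf replicate 1 (951) or replicate 2 (2056). Over all replicates left out in turn it ran from 428 to 2056. The share of regions with 64C and both 11 hpf summits that it represents, 19.4%, was 24.6% with a chaining gap of 100 bp, 25.7% with values at or above the median of each list, 14.8% with equal numbers, 16.9% when no 12 or 13 hpf summit was allowed within 1000 bp, and 21.9 to 43.5% with a replicate left out. The number for 12 hpf only was 84 with values at or above the median and 166 to 902 with a replicate left out. The number for 13 hpf only was 35 and 86 to 643 in the same alternatives and 130 with equal numbers. The share with both antibodies was 59.3% with values at or above the median, 73.6% with equal numbers, 73.8% on numbered chromosomes only, and 55.5 to 72.6% with a replicate left out. The share within 2 Mb of an end was 47.4% and 46.7% in the first 2 of these and 34.7 to 43.1% with a replicate left out. Leaving out 1 replicate of a stage loosens the rule, so that the numbers of regions rise by construction, while the shares with both antibodies or near an end need not. The cause of the other changes was not tested.

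Of the 380 regions, 324 were found again with a gap of 100 bp, 316 with 1000 bp, 125 with values at or above the median, and 312 with either 64C list alone. The gap of 100 bp gave 538 regions, of which 333 (61.9%) overlapped the 380. Values at or above the median gave 258 regions, of which 125 (48.4%) overlapped them. Of the 10 described singly, 8 to 10 were found again with other gaps, 9 when no 12 or 13 hpf summit was allowed within 1000 bp, 9 with the Abcam list alone and 6 with the SYSY list alone. With value filters, equal numbers or a replicate left out their return follows from the rule and from their high ranks. No paired analysis was possible because each result is a count or share over all 8 libraries together, with no value per replicate to pair. The planned sequence results were not run, as no danRer10 sequence was used. The depth of the libraries is unknown, so that a missing summit may be a matter of depth.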
